A study of Mus musculus with 100 samples.

Results

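Chromatin immunoprecipitation sequencing (ChIP-seq) of p65 measured where this NF-κB subunit sat on the genome of mouse bone marrow-derived macrophages (BMDMs) before and after TLR4 was activated. The p65 experiment held 4 of the 100 samples of the series, chosen by their labels: 2 replicate libraries of wild-type cells given vehicle (Veh) and 2 of wild-type cells given KLA (Kdo2 lipid A, a lipopolysaccharide mimic that activates TLR4) for 6 h. Per the study's methods, marrow came from C57BL/6 mice of 8 to 12 weeks, was differentiated for 7 days, starved of serum for 12 h and treated with 100 ng/mL KLA, and the chromatin was fixed with DSG and formaldehyde. The labels name no transgene or deletion in either group, and a cultured population of differentiated marrow need not be pure. The deposited table listed 52629 peaks merged over both conditions with the raw tags (aligned reads) of each library in each peak, and all 52629 passed the tag minimum and were tested.

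In resting macrophages NF-κB dimers are held in the cytoplasm by IκB proteins. Binding of lipopolysaccharide to the TLR4 complex leads, through MyD88, IRAK and TRAF6, to the IκB kinases, and IκB is degraded so that p65 (RelA) and its partners enter the nucleus and bind κB elements. Among the best known targets are cytokine and chemokine genes and the genes of NF-κB's own inhibitors, which feed back on the pathway.

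The sequences under 6 peaks show what p65 occupied at genes that recur below. They are given 5′ to 3′ on the plus strand of mm10 (GRCm38), at most 300 bases around the peak centre, with capitals on each match of the NF-κB consensus searched on both strands. Ptgs2, Cp, Mir155hg, Tnfaip3 and Cxcl10 are shown for gained binding and Kifap3 for lost binding.
Ptgs2 promoter, chr1:150099870-150100109: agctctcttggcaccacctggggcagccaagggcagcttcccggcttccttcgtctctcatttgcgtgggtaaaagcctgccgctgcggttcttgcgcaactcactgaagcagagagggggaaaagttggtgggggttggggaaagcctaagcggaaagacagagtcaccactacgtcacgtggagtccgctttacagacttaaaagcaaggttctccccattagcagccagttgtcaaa
Cp upstream peak, chr3:19954050-19954269: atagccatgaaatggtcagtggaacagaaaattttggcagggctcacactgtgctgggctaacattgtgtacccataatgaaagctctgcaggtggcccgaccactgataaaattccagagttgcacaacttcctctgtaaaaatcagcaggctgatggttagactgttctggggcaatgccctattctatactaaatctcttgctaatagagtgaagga
Mir155hg peak, chr16:84713071-84713272: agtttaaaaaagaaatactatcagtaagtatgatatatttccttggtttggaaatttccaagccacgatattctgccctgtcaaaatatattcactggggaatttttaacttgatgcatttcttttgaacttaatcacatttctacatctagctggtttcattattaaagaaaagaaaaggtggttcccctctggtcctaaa
Tnfaip3 promoter, chr10:19015262-19015540: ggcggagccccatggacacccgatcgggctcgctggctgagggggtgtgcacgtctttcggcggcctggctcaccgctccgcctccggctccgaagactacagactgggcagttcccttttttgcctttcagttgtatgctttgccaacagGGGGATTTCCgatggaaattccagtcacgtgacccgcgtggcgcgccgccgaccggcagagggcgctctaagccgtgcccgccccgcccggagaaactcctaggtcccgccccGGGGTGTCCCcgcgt
Cxcl10 promoter, chr5:92348895-92349142: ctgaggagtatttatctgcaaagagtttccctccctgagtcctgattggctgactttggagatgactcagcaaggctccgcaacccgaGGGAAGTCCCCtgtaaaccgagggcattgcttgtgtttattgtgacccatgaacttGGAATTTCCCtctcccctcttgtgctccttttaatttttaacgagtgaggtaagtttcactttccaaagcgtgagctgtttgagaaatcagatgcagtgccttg
Kifap3 promoter, chr1:163779407-163779652: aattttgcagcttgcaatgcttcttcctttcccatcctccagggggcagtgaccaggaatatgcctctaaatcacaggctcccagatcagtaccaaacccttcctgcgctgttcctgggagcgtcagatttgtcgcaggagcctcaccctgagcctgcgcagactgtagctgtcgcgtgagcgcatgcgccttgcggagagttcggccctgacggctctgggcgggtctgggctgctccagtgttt

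The Cxcl10 window held 3 consensus matches, GGGAAGTCCC and GGAAGTCCCC overlapping each other and GGAATTTCCC, the last of which is also a match of the stricter form GGGANNTTCC on the other strand. The Tnfaip3 window held GGGGATTTCC and GGGGTGTCCC. No match lay in the Ptgs2, Cp, Mir155hg or Kifap3 windows, which says only that these letters are not there. The Ptgs2 window held TTGCGCAA, and the Cp window held TTGCACAA beside ACTTCCTC, which match the C/EBP form TTGCNNAA and the PU.1 form GAGGAAGT.

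Gains of p65 after KLA outnumbered losses, by a margin that depended on the scaling. By library totals, 29981 of 52629 peaks, 57% of those tested, carried more p65 after KLA and 2859, 5.43%, carried less, at a change above 2-fold and an adjusted p below 0.05 (edgeR quasi-likelihood test, Benjamini-Hochberg, 2 libraries against 2). Totals were 11421650 and 10727238 reads in the Veh libraries and 14973809 and 14617052 in the KLA libraries, and levels are given below as scaled tags, which are tags per 10000000 reads of the library. Peaks held 12.7% and 14.4% of the Veh reads and 34.1% and 37.1% of the KLA reads. The gained peaks accounted for 4.74% and 5.39% of the Veh reads and for 25.4% and 27.5% of the KLA reads. The lost peaks went from 1.01% and 1.10% to 0.321% and 0.357%, and the peaks without a call took 6.94% and 7.92% against 8.29% and 9.22%. The median gained peak had 8.98 scaled tags in Veh and 58.5 in KLA, and the median lost peak 30.4 in Veh and 8.17 in KLA.

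Which peaks count as unchanged depends on the scaling. The median log2 fold change over all peaks was 1.46 by library totals and 0.24 after TMM normalisation, which sets the bulk of the peaks near no change. The 1.46 was the same with the 1682 peaks that had no Veh tag set at a floor of 3 tags over both libraries. With TMM, 14540 peaks were higher and 11205 lower, so that higher calls made up 56.5% of all calls against 91.3% by totals. Every one of the 14540 peaks higher by TMM was also higher by totals, and every one of the 2859 peaks lower by totals was also lower by TMM. The 2 scalings differed over 15441 peaks that were higher by totals and without a call by TMM, and over 8346 that were without a call by totals and lower by TMM. Changes described below are by totals, and "by both scalings" marks those also called with TMM. Without KLA replicate 1 the counts by totals were 17386 higher and 364 lower, and without KLA replicate 2 they were 15642 and 499.

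**Figure D1:**
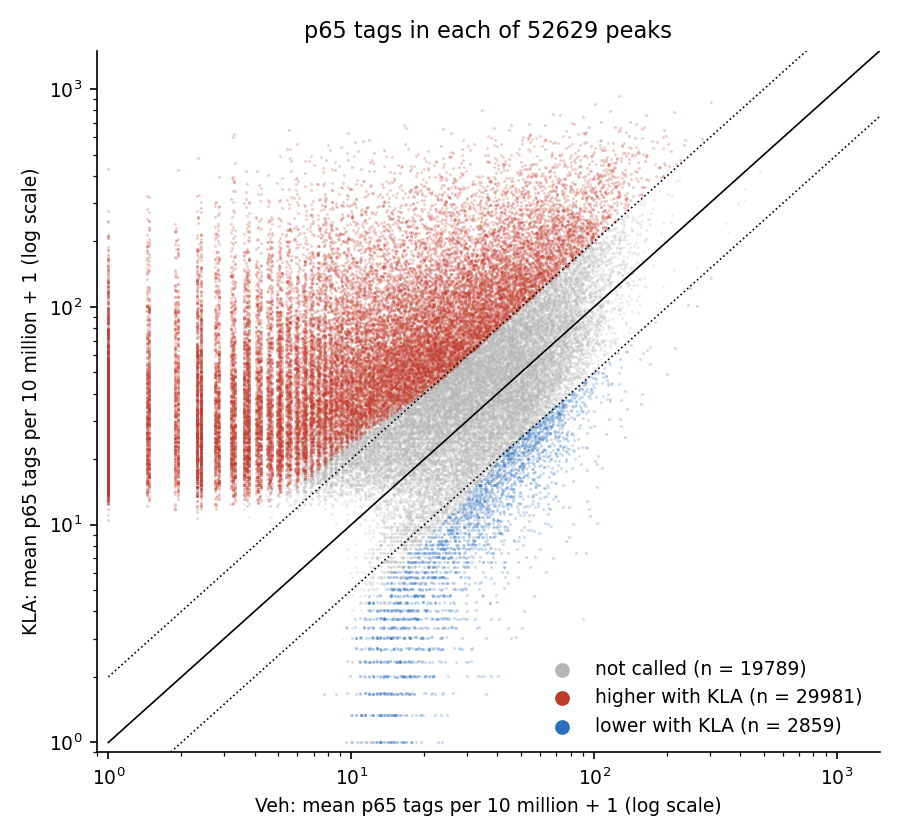
Mean p65 level of each of the 52629 peaks in Veh (horizontal axis) and KLA (vertical axis), in scaled tags plus 1 on log axes, with gained, lost and uncalled peaks in separate colours, a solid line of equality and dotted lines at 2-fold. The gained peaks, 57% of all, fill the side above the diagonal, and the lost peaks, 5.43%, lie below it.

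The peaks were themselves called on these libraries, so where a peak was called fixes much of its direction. Of 34127 peaks called in KLA only, 74.4% were higher. Of 7071 called in Veh only, 36.5% were lower and 0.453% higher. Of the 11431 peaks called in both conditions, 39.8% were higher and 2.15% lower. Their median level went from 49.5 scaled tags in Veh to 80.9 in KLA. All tags come from whole populations, so more p65 per cell and more cells with p65 bound cannot be told apart.

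Each peak was assigned in the deposited table to the gene with the nearest start site, which gave 12908 genes with 1 to 72 peaks each, and tags were summed over a gene's peaks. KLA raised this sum at 6479 genes, 50.2% of those tested, and lowered it at 624, 4.83%. The median log2 fold change over all genes was 1.03 by totals and 0.02 by TMM. TMM called 2918 genes higher and 2742 lower, and 2918 genes, 22.6% of those tested, were higher and 624 lower by both scalings. Without KLA replicate 1, 266 genes were lower by totals, and without KLA replicate 2, 390 were. Single peaks divided the genes further, since 7371 genes had gained peaks only, 982 had lost peaks only, 1278 had both and 3277 had neither.

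At the receptor and its adaptors, 13 of 19 genes of the TLR4 list with a peak rose, none fell, and 8 of the 13 rose by both scalings, with a median log2 fold change of 1.5. Cd14, the co-receptor that hands lipopolysaccharide to TLR4, went from 167 and 176 scaled tags summed over its 5 peaks in Veh to 939 and 1006 in KLA (log2 fold change 2.50, SE 0.16, edgeR adjusted p = 1.85e-10). Irak3, a kinase-like brake on TLR signalling, rose from 190 and 189 to 1861 and 1960, the steepest of the list at a log2 fold change of 3.33. Irak2, which carries the late phase of the signal, rose from 395 and 433 to 2044 and 2152, although its peaks within 2 kb of a start site alone gave a log2 fold change of -0.25. At Irak3 and Irak2, as at Cd14, the Veh and KLA libraries lay far apart with close replicates. The kinase genes were less uniform: Ikbkb, encoding IKKβ, rose by 2.10 on the log2 scale, whereas Chuk, encoding IKKα, had 43.8 and 54.1 in Veh and 30.7 and 49.9 in KLA and was not called. Irak1, Tab1, Tab3 and Chuk, without a call by totals, were lower by TMM.

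All 5 NF-κB subunit genes gained p65, 2 of them by both scalings. Nfkb1, encoding p105 and p50, stood apart with 408 and 445 scaled tags in Veh and 3704 and 4188 in KLA over its 26 peaks, 22 of them gained (log2 fold change 3.21, SE 0.16, edgeR adjusted p = 9.58e-12). Its strongest peak, in an intron 20814 bp from the start site, went from 7.88 and 23.3 to 547 and 569. Rel, encoding c-Rel, rose from 437 and 551 to 1979 and 2202. Rela itself rose from 187 and 208 to 595 and 664, a log2 fold change of 1.67 by totals and 0.66, without a call, by TMM. Relb and Nfkb2 behaved like Rela, with log2 fold changes of 1.54 and 1.66 that were not called by TMM.

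The inhibitors and feedback genes of the pathway gained p65 at 10 of 12, 4 of them by both scalings, and none lost it. Tnfaip3, encoding the ubiquitin-editing enzyme A20, had 41 peaks of which 40 were gained, and its sum rose from 857 and 1018 to 6656 and 7126. At the Tnfaip3 promoter, whose sequence is printed above, p65 was present before KLA, at 157 and 158 scaled tags, and reached 627 and 688 (log2 fold change 2.06, SE 0.18, edgeR adjusted p = 4.43e-06, not called by TMM). The sum over all Tnfaip3 peaks had a log2 fold change of 2.88 and rose by both scalings. Nfkbiz, encoding IκBζ, rose from 660 and 707 to 4243 and 4578 with 31 of 33 peaks gained. Tnip1, a partner of A20, rose from 647 and 641 to 3276 and 3693. Nfkbia, encoding IκBα, rose from 800 and 928 to 3184 and 3734, a log2 fold change of 2.00 that was 0.99, just under the fold minimum, by TMM. Nfkbid, at 183 and 188 in Veh and 266 and 235 in KLA, and Bcl3, at 608 and 693 in Veh and 1160 and 1303 in KLA, were not called.

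All 18 cytokine genes gained p65, 15 by both scalings, with a median log2 fold change of 2.57. Il12a, encoding the p35 subunit of interleukin 12, had the steepest sum of the list, from 49.9 and 71.8 scaled tags to 1580 and 1708 (log2 fold change 4.76, SE 0.20, edgeR adjusted p = 2.07e-12). Its strongest peak lay 56919 bp from the Il12a start site, at chr3:68633622-68633828, and went from 4.38 and 5.59 to 318 and 342. Il6 followed with 29 of 29 peaks gained and a sum that went from 98.1 and 180 to 3100 and 3292. The Il6 peak with the lowest p, 132802 bp from its start site, had 3 raw Veh tags in all against 1432 raw KLA tags, a ratio of 357 after scaling with an exact 95% interval of 122 to 1735 that covers counting error only. Il27, encoding a subunit of interleukin 27, rose from 98.9 and 99.8 to 1054 and 1148. Il1a and Il1b, neighbours on chromosome 2, rose by 3.22 and 3.15 on the log2 scale, and Tnf by 2.15. Ifnb1 rose least, from 80.6 and 110 to 241 and 205, and was not called by TMM.

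All 17 chemokine genes gained p65, 12 by both scalings, with a median log2 fold change of 2.73. Cxcl5, a neutrophil attractant, rose from 196 and 157 to 1649 and 1751 over 14 gained peaks. Ccl5, encoding RANTES, rose from 156 and 213 to 1903 and 2132 (log2 fold change 3.45, SE 0.18, edgeR adjusted p = 1.43e-11). Cxcl10, which attracts activated T cells, rose from 109 and 97.9 to 924 and 928. The Cxcl10 promoter with its 3 consensus matches went from 59.5 and 38.2 to 436 and 487, so both KLA values were far above both Veh values. Cxcl9 had no tag in either Veh library and 20.0 and 19.2 scaled tags in KLA, and the median of the list was the same with it at a floor of 3 Veh tags. Ccl9, Ccl17, Cxcl16, Ccl2 and Cxcl3 were higher by totals only.

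All 20 genes of the list of inflammatory effectors and surface molecules gained p65, 15 by both scalings, and the median log2 fold change of 3.49 was above that of every other list tested. Mir155hg, the host gene of miR-155, had the largest change of its list: 27.1 and 24.2 scaled tags in Veh and 1376 and 1591 in KLA over 8 gained peaks (log2 fold change 5.84, SE 0.21, edgeR adjusted p = 1.23e-12). The peak printed above, 148 bp from an annotated start site, went from 4.38 and 5.59 to 531 and 588. Ptges, encoding the prostaglandin E synthase that acts after cyclooxygenase 2, went from 44.7 and 19.6 to 1454 and 1673. Ptgs2, encoding cyclooxygenase 2 itself, had only 2 peaks, and its promoter went from 14.0 and 28.0 to 214 and 249 (log2 fold change 3.47, SE 0.31, edgeR adjusted p = 6.45e-06). Saa3, an acute phase protein gene, rose at its promoter from 2.63 and 5.59 to 460 and 527. Cp, encoding the copper-carrying ferroxidase ceruloplasmin, gained p65 at all 5 peaks, and the strongest, 2895 bp from the Cp start site, went from 25.4 and 30.8 to 421 and 452 (log2 fold change 3.96, SE 0.23, edgeR adjusted p = 7.91e-07). Edn1, encoding endothelin 1, gained p65 at 39 of 39 peaks. Cd80, Plaur, Icam1, Vcam1 and Cd86 were higher by totals only, Cd80 the least, from 109 and 104 to 207 and 244.

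**Figure D2:**
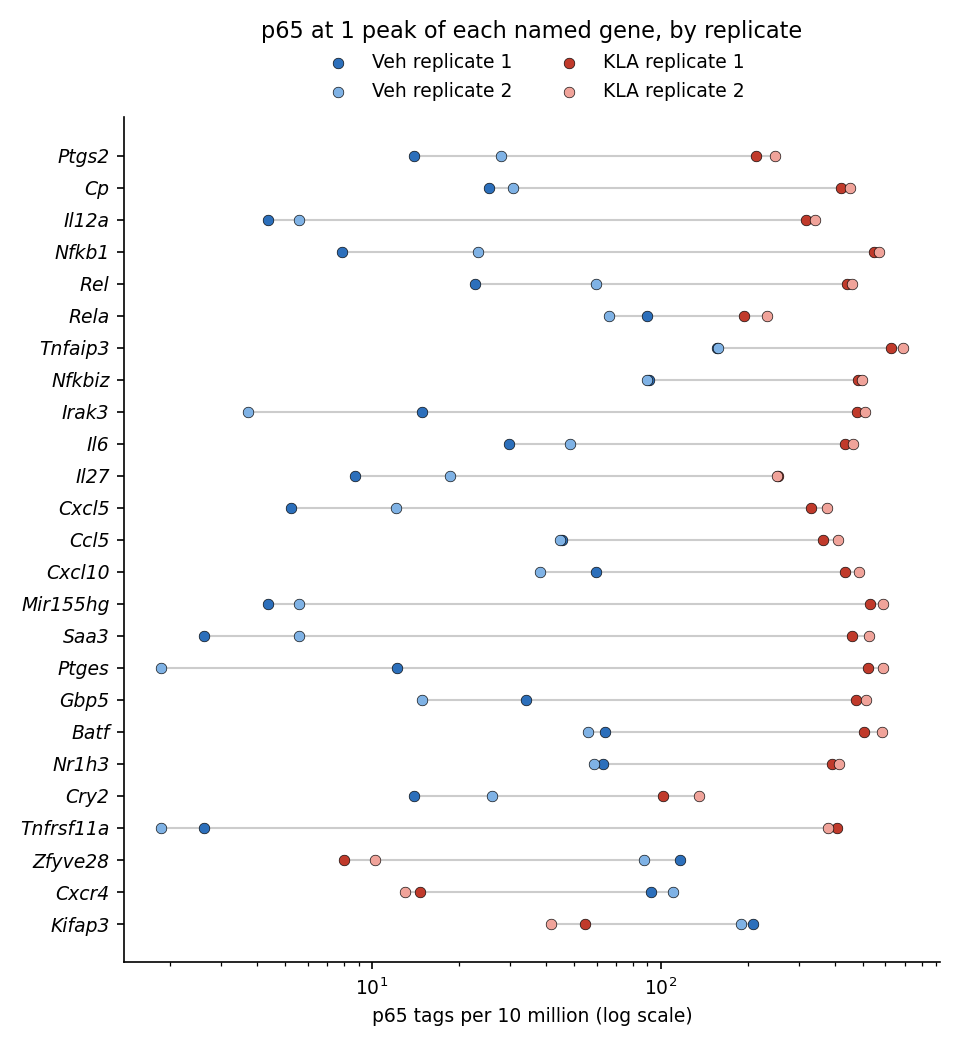
p65 level at 1 peak of each of 25 genes, in scaled tags on a log axis, with 1 point for each of the 2 Veh and 2 KLA libraries. Mir155hg, Il12a and Cp show KLA points well above both Veh points, and Kifap3 shows KLA points at 54.8 and 41.7 below Veh points at 208 and 189.

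Survival genes gained p65 at 11 of 12, 8 by both scalings. The steepest were Bcl2a1a, Bcl2a1b and Bcl2a1d, which encode the anti-apoptotic protein A1, at log2 fold changes of 5.24, 3.61 and 3.85. These 3 genes are near-identical copies, so how reads were shared between them is uncertain. Traf1, an adaptor of TNF receptors, rose from 198 and 261 to 2094 and 2213, and Birc3, encoding cIAP2, from 173 and 207 to 1183 and 1351. Xiap, at 115 and 147 in Veh and 205 and 274 in KLA, was not called.

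Of 20 interferon response genes 17 gained p65, 11 by both scalings. Mx1, an antiviral GTPase gene, rose from 75.3 and 98.8 to 861 and 876 (log2 fold change 3.32, SE 0.18, edgeR adjusted p = 2.94e-11). The guanylate-binding protein genes Gbp5 and Gbp2 rose at their promoters, Gbp5 from 34.2 and 14.9 to 473 and 512 and Gbp2 from 41.2 and 49.4 to 346 and 410. Irf1, a transcription factor of the response, rose by 1.26 on the log2 scale, by totals only. Irf7, at 77.9 and 102 in Veh and 66.8 and 117 in KLA, overlapped between the groups, and Irf9 and Ddx58 were not called either.

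Among AP-1 and immediate early factors, 7 of 11 genes gained p65 and 2 of them did so by both scalings. Batf was one, from 321 and 360 to 2890 and 3296 with 14 of 14 peaks gained (log2 fold change 3.18, SE 0.16, edgeR adjusted p = 1.19e-11). Egr2, a zinc finger factor gene, was the other, from 115 and 123 to 500.9 and 528, but its peaks within 2 kb of a start site alone gave a log2 fold change of -1.05. Jun, Junb, Jund and Egr1 were not called, with log2 fold changes between 0.54 and 0.92 by totals and between -0.47 and -0.09 by TMM. Fos rose by 1.59 over its 20 peaks by totals and had -2.06 over those within 2 kb of a start site. Its strongest peak, at 115 and 139 in Veh and 198 and 205 in KLA, was not called and had a log2 fold change of -0.55 by TMM.

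Macrophage lineage genes were mixed, with 8 of 18 higher, none of the 8 by both scalings. Cx3cr1, the fractalkine receptor gene, rose from 274 and 246 to 881 and 1031, and Adgre1, encoding F4/80, from 723 and 808 to 2282 and 2586. Maf, a transcription factor gene, rose by 1.85 on the log2 scale by totals, with 37 of 52 peaks gained and 1 lost, and had -0.92 over the peaks within 2 kb of a start site. Csf1r, Klf4, Mertk, Mef2c and Ccr2 were not called in either direction by either scaling, and Cebpb, Lyz2, Mrc1 and Hpgd were lower by TMM only.

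The list of LXR and cholesterol genes had 10 of 12 higher, 2 by both scalings, and 1 lower, where 50.2% of all genes were higher and 22.6% were by both scalings. TMM called 2 of the 12 lower. Nr1h3, encoding LXRα, rose at its only peak from 63.0 and 58.7 to 392 and 415, by both scalings, while Nr1h2, encoding LXRβ, had 72.7 and 90.4 in Veh and 63.4 and 84.2 in KLA and was not called. Abca1 and Abcg1, the cholesterol exporters, rose by 1.49 and 1.57 on the log2 scale by totals only, and Abcg1 had -2.04 over its peaks within 2 kb of a start site. Apoe, encoding the lipoprotein apolipoprotein E, lost p65 by both scalings, from 109 and 102 to 33.4 and 39.7. Its peak 99 bp from the start site fell from 42.0 and 42.0 to 0.668 and 8.89.

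Clock genes had 7 of 13 higher and none lower by totals, and 2 higher, Per2 and Cry2, by both scalings. TMM called 4 of the 13 lower. Cry2, a repressor of the clock, rose at its only peak from 14.0 and 26.1 to 102 and 135. Nr1d1, encoding REV-ERBα, rose by 1.29 on the log2 scale by totals and 0.28, without a call, by TMM. Osteoclast genes had 5 of 9 higher by totals and 1 lower by TMM. Of the 5, Tnfrsf11a, encoding RANK, also rose by TMM, from 446 and 440 to 1868 and 1955. It had a log2 fold change of -0.036 over its peaks within 2 kb of a start site. A peak 83546 bp from the Tnfrsf11a start site went from 2.63 and 1.86 to 407 and 380. Housekeeping genes had 3 of 10 higher, Actb, B2m and Rplp0, none by both scalings, and a median log2 fold change of 0.64, under the 1.03 of all genes. With TMM 3 of the 10 were lower and the median was -0.37. The Actb sum had -0.0073 by TMM.

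Read against all genes, where 50.2% rose and 22.6% rose by both scalings, the subunit, cytokine, chemokine and effector lists had every tested member higher. Their medians, 1.67, 2.57, 2.73 and 3.49, all exceeded the overall 1.03. The macrophage, clock, osteoclast and housekeeping lists lay near the 50.2% of all genes or under it. The TLR4, inhibitor, survival, interferon, AP-1 and LXR lists lay above it by totals, at 63.6% to 91.7%. By both scalings the AP-1 list had 2 of 11 and the LXR list 2 of 12 higher, under the 22.6% of all genes. These are descriptions of lists, with no test of the list itself.

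Most of the 8 peaks with the lowest p in the upward direction, taken 1 per gene, lay over 2 kb from a start site. So did 80.2% of all peaks and 89.9% of gained peaks. Their Veh values ran from 0.876 to 17.7 scaled tags, on both sides of the 8.98 of the median gained peak. A peak 19152 bp from Mir3966 went from 2.63 and 1.86 scaled tags to 594 and 610. One 1012 bp upstream of Fpr1, encoding a formyl peptide receptor, went from 0.876 and 3.73 to 614 and 629. Ccdc88b and Gpd2 peaks had about as much p65 in KLA, 656 and 671 at Ccdc88b and 684 and 688 at Gpd2, over a higher start of 13.1 to 17.7. In all of these the edgeR adjusted p was 6.40e-07. The genes with the most gained peaks were 1700016G22Rik and 1700019E08Rik with 64 each, Trps1 with 55, Lpp with 52 and Marcks with 47. The Marcks sum, for a substrate of protein kinase C at the membrane, went from 1333 and 1645 to 5995 and 6497.

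Lost binding was rarer, and the median lost peak held about as much p65 in Veh, 30.4 scaled tags, as the median uncalled peak, 31.3. An intronic peak of Tbc1d1, a Rab GTPase-activating protein gene, fell from 76.2 and 103 to 3.34 and 2.05 (log2 fold change -5.00, SE 0.49, edgeR adjusted p = 1.09e-05). The rest of Tbc1d1 went the other way, with 14 of 24 peaks gained and 3 lost, and its sum rose by 1.15 on the log2 scale by totals. Zfyve28, an endosomal protein gene, lost 4 of 5 peaks, and its strongest went from 116 and 87.6 to 8.01 and 10.3. The Kifap3 promoter printed above, at 208 and 189 in Veh the strongest of the named losses, kept 54.8 and 41.7 in KLA. At Zfyve28 and Kifap3 the replicates lay close and the groups did not overlap.

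Cxcr4, encoding the receptor for CXCL12, showed both directions at 1 locus. The peak 1380 bp from its start site fell from 92.8 and 110 to 14.7 and 13.0 (log2 fold change -2.86, SE 0.35, edgeR adjusted p = 4.51e-05), and the promoter peak at 35 bp fell from 77.9 and 55.9 to 8.01 and 4.10. A peak 80175 bp away rose from 9.63 and 4.66 to 80.1 and 66.4. With 3 of 16 peaks gained and 5 lost, the Cxcr4 sum was 679 and 682 in Veh and 614 and 617 in KLA and was not called. The genes with the most lost peaks were Tnrc18 with 7 of 14 and Atp6v0d2, Dhrs3 and Gpr34 with 6 each of 11, 29 and 11, followed by 2010111I01Rik with 5 of 26. Dhrs3, a retinal reductase gene, also gained 9 peaks, 1 of them from 57.8 and 57.8 to 341 and 324. Atp6v0d2, encoding a proton pump subunit of osteoclasts and macrophages, had 676 and 798 in Veh and 370 and 384 in KLA, a log2 fold change of -0.97 that missed the fold minimum by totals.

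Gained p65 lay away from promoters, and lost p65 was found near them far more often than gained p65 was. Of 42232 peaks over 2 kb from a start site, 63.8% were higher and 3.69% lower. Of 10397 within 2 kb, 29.2% were higher and 12.5% lower. Thus 89.9% of gained peaks but 54.5% of lost peaks were distal, where 80.2% of all peaks were. The median Veh level was 34.7 scaled tags within 2 kb and 15.0 beyond. Calls also went with the Veh level, which itself enters the fold change. In its lowest quintile 98.9% of peaks rose and 0% fell, and in its highest 28.5% rose and 8.77% fell. The part of the Veh level in the shares by distance was not tested. At promoters in the table's own annotation (6515 peaks), 19.8% rose and 13.6% fell, and the median log2 fold change was -0.13. Intergenic peaks (20149) rose in 66.5% and intronic peaks (23748) in 60.0%. Right at the start site, within 200 bp, 13.4% rose and 15.3% fell, the only distance class with more losses than gains by totals. Beyond 100 kb, 70.0% rose and 2.94% fell. By TMM the shares were 3.87% and 68.2% within 200 bp and 38.2% and 10.7% beyond 100 kb, so the order of the classes was alike and the level was not. Peaks labelled as CpG island (639) resembled promoters, with 16.3% higher and 19.1% lower. Each peak carries a single label, so CpG islands at peaks labelled as promoters are not counted among these.

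**Figure D3:**
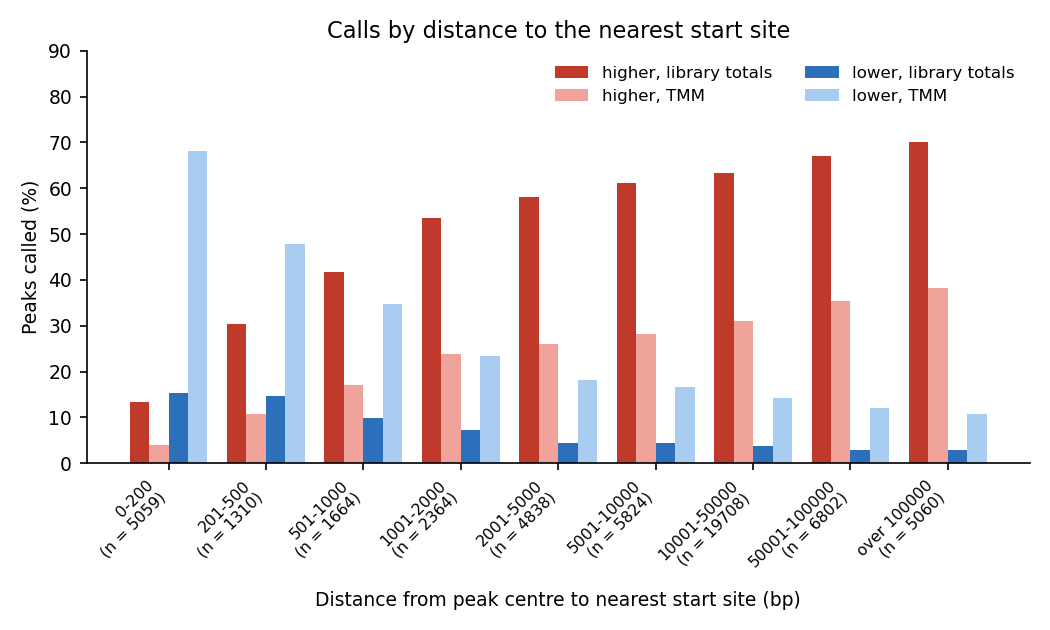
Percent of p65 peaks higher and lower with KLA in each class of distance to the nearest start site, by library totals and by TMM. The share of higher peaks climbs from 13.4% within 200 bp to 70.0% beyond 100 kb by totals, and from 3.87% to 38.2% by TMM.

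Peaks in repeats varied by family. LINE peaks (3215) rose in 76.4%, LTR peaks (4177) in 64.7% and SINE peaks (1608) in 56.8%, with 8.40% of SINE peaks lower. Over all peaks 57% rose and 5.43% fell, and 63.8% of those over 2 kb from a start site rose, so the LTR and SINE shares lay near these. Within the LTRs, ERV1 peaks (405) rose in 81.2%. Among single elements, chosen after their values were seen, all 53 LTRIS_Mm peaks on 17 chromosomes rose, 49 by both scalings. Their tags summed to 84.1 and 105 scaled tags in Veh and 3137 and 3514 in KLA, and 24 of the 53 had no Veh tag. All 34 peaks of the related LTRIS_Mus rose as well, from sums of 134 and 143 to 2434 and 2656. L1Md_F2 peaks rose at 137 of 146, or 93.8%. The median Veh level was 0.876 scaled tags at LTRIS_Mm and at LTRIS_Mus peaks, and 1.75 at L1Md_F2 peaks. Of peaks in the lowest quintile of Veh level 98.9% rose, so the calls at these elements say little beyond their low Veh level. B2_Mm2 peaks were divided, 25 of 72 higher and 23 lower. Copies of such elements are nearly alike, so the copy a read came from is uncertain, and the peaks are not independent sites.

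An LTRIS_Mm element 4267 bp from the start site of Ctu1 is shown on the plus strand of mm10, with capitals on the NF-κB consensus match.
LTRIS_Mm element near Ctu1, chr7:43667660-43667868: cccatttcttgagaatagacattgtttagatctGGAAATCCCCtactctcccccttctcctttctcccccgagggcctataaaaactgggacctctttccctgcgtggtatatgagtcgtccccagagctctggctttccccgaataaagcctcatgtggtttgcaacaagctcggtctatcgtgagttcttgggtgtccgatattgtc
It carried 5.25 and 4.66 scaled tags in Veh and 202 and 251 in KLA (log2 fold change 5.48, SE 0.35, edgeR adjusted p = 9.33e-07). The match GGAAATCCCC occupies bases 34 to 43. A consensus match lay within the central 200 bp at 86.8% of LTRIS_Mm and 82.4% of LTRIS_Mus peaks, against 9.85% of all peaks, 4.79% of L1Md_F2 and 1.39% of B2_Mm2 peaks. The stricter form GGGANNTTCC was in 1 of the 53 LTRIS_Mm and none of the 34 LTRIS_Mus peaks, under its 3.12% of all peaks. Within 500 bp, 50 of the 53 LTRIS_Mm peaks had a p300 peak, which rose in all 50 cases, 26 had an NCoR peak, 24 of them higher, and 1 had a PU.1 peak. Of all p300 peaks 42.1% were higher, and of all NCoR peaks 23.4%.

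Matches of every motif but PU.1 followed the direction of change. In the central 200 bp, 12.6% of gained peaks, 6.45% of uncalled peaks and 4.38% of lost peaks held the NF-κB consensus, and 4.28%, 1.70% and 0.805% held the stricter GGGANNTTCC, which the consensus includes. Peaks gained by both scalings held the consensus in 15.8%. Its share went from 3.72% of peaks with a log2 fold change under -2 to 19.5% of those above 6. The AP-1 form TGANTCA was in 26% of gained and 6.55% of lost peaks and did not climb with the size of the gain, at 26.6% for log2 fold changes of 1 to 2 and 21.1% above 6. The C/EBP form TTGCNNAA was in 20.3% and 7.53%, and the interferon response form GAAANNGAAA in 7.23% and 2.07%. The PU.1 form GAGGAAGT was in 8.42% of gained, 11.8% of uncalled and 6.09% of lost peaks. It was most frequent, at 13.2%, in peaks with log2 fold changes of 0 to 1 and was in 4.31% of peaks above 6. GC content moved with these shares: its median was 44% in gained, 49.5% in uncalled and 54% in lost peaks, and its part in the motif shares was not tested. Among peaks over 2 kb from a start site the consensus was in 11.9% of gained and 2.96% of lost peaks, with median GC of 43.5% and 48.5%.

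**Figure D4:**
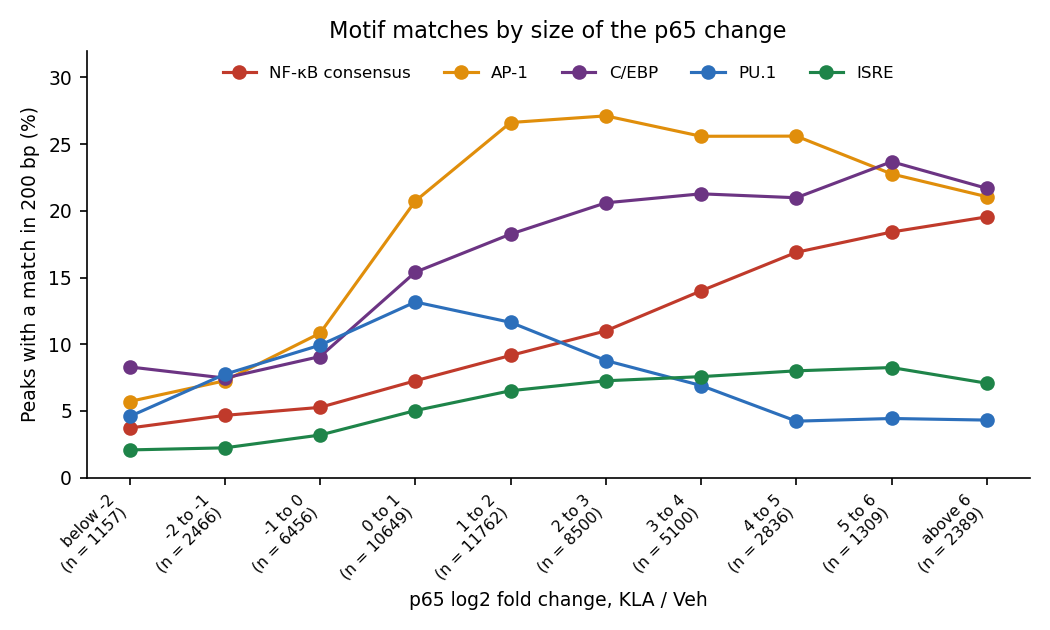
Percent of p65 peaks with each motif in the central 200 bp, by class of log2 fold change between KLA and Veh. The NF-κB consensus goes from 3.72% under -2 to 19.5% above 6, and the PU.1 form peaks at 13.2% between 0 and 1.

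Other proteins were profiled by ChIP-seq with and without KLA, in libraries of their own that did not enter the p65 calls. Input libraries are labelled as common to Fosl2, p65 and PU.1. The Fosl2 and PU.1 libraries may thus stem from the same chromatin as those of p65 and need not be independent of them. Their conditions were not all those of p65. The p300 control cells are marked as taken at 0 h in the file headers, where those of p65, PU.1, Fosl2 and NCoR had vehicle for 6 h. The H3K27ac cells, called WT, carried a floxed NCoR gene on both alleles, with no vehicle time given, and were fixed with formaldehyde without DSG. The H3K27ac fit held 8 libraries, among them cells with NCoR deleted (NKO), with and without KLA. The NKO libraries entered the tag minimum and the estimate of spread, while the H3K27ac values below compare WT cells only. The part of these differences in the values below was not tested. A peak of p300, a histone acetyltransferase and coactivator, lay within 500 bp of 80.4% of all p65 peaks, 85.3% of those that rose, 77.7% of those without a call and 46.8% of those that fell. p300 rose at these sites with a median log2 fold change of 1.77 and fell beside lost p65 with a median of -1.41, where all p300 peaks had 0.65. In the p300 libraries 42.1% of all peaks were higher and 12.9% lower (edgeR quasi-likelihood test, 2 against 2), whereas 68.3% were higher beside gained p65 and 66.7% lower beside lost p65. Fosl2, an AP-1 subunit, had medians of 0.95 and -2.08 beside gained and lost p65 and -0.14 over all its peaks, of which 11.4% were higher and 4.19% lower. KLA replicate 1 of Fosl2 had 4296236 reads, 16.4% of them in peaks, and replicate 2 had 8554301 reads with 32.3% in peaks. Set against the Veh mean, replicate 1 gave medians of 0.38 beside gained p65, -3.04 beside lost p65 and -0.73 over all Fosl2 peaks. Replicate 2 gave 1.33, -1.69 and 0.26, so the sign over all Fosl2 peaks differed between the 2 libraries.

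PU.1, the lineage factor of macrophages, had a median log2 fold change of 0.16 beside gained p65, where 14.7% of its peaks were higher, and of -0.41 over all PU.1 peaks, of which 4.53% were higher and 21.7% lower. Beside lost p65 its median was -1.32 and 66.0% of its peaks were lower, values close to those of p300 by totals. With TMM they lay apart, at -0.90 and 44.83% lower for PU.1 and -1.93 and 88.75% lower for p300. A PU.1 peak lay near 45.1% of gained, 46.8% of lost and 71.7% of uncalled p65 peaks. NCoR, a corepressor, had medians of 0.92 and -1.60 against 0.10 over all its peaks, of which 23.4% were higher and 16.7% lower. The acetylation mark H3K27ac moved in the same directions with smaller steps, 0.42 and -0.12 against 0.13 over all regions, of which 6.49% were higher and 3.72% lower, and with p65 called by TMM its median beside lost p65 was 0.046. An H3K27ac region lay near only 15.2% of gained, 33.6% of lost and 36.2% of uncalled p65 peaks, so these medians leave most p65 peaks out. For each of the 5 readouts the median beside gained p65 was above, and that beside lost p65 below, the median of all its regions, over 2 libraries a group.

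**Figure D5:**
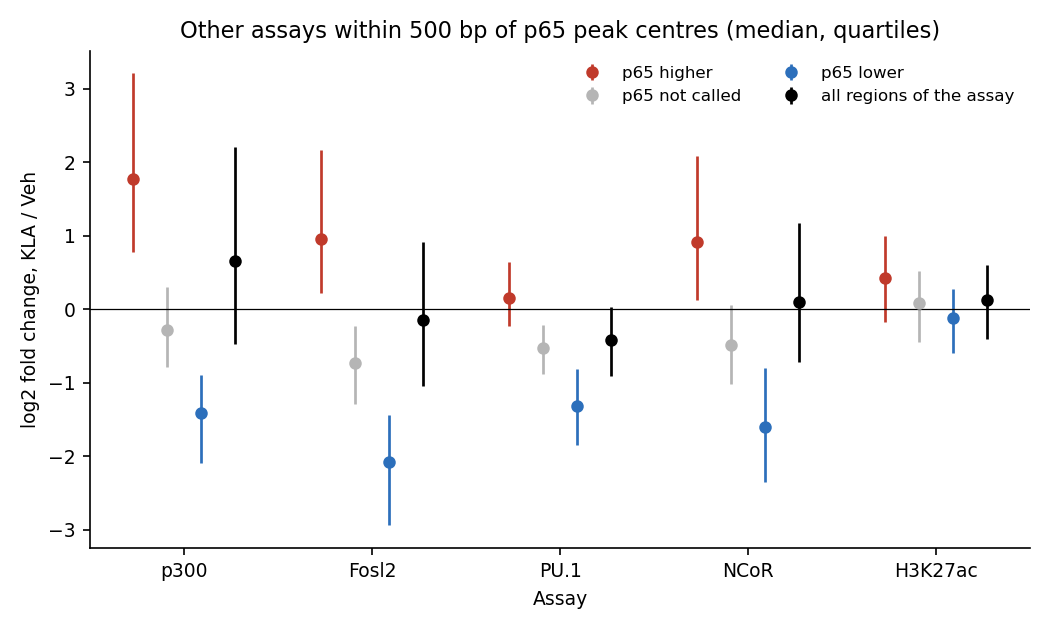
Log2 fold change between KLA and Veh of PU.1, Fosl2, p300, NCoR and H3K27ac at their own regions within 500 bp of gained, uncalled and lost p65 peaks and over all regions, by library totals (points are medians, bars quartiles). Beside gained p65 the medians run from 0.16 for PU.1 to 1.77 for p300, and beside lost p65 from -2.08 for Fosl2 to -0.12 for H3K27ac.

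The named peaks show the same readouts 1 locus at a time. Beside the Mir155hg peak p300 went from 8.78 and 16.4 scaled tags to 448 and 452, and PU.1 from 2.07 and 3.11 to 145 and 115. At the Ptgs2 promoter p300 went from 41.4 and 30.2 to 205 and 213, NCoR from 46.6 and 44.7 to 165 and 158, and no PU.1 peak lay within 500 bp. At the Tnfaip3 promoter PU.1 was level, at 274 and 300 in Veh and 292 and 265 in KLA, while p300 went from 172 and 179 to 630 and 660. Among losses, beside the strongest Zfyve28 peak PU.1 went from 244 and 284 to 36.0 and 26.8. The Kifap3 promoter had no region of any of the 5 within 500 bp.

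The identity of the cells was checked on markers in the Veh libraries. All 7 macrophage markers had a PU.1 peak at the promoter and 4 an H3K27ac region, whereas no H3K27ac region lay at the promoters of T cell, B cell, neutrophil or dendritic cell markers. The macrophage markers Csf1r, Adgre1 and Lyz2 had none either, so a missing region does not show that a cell type was absent. PU.1 peaks at the macrophage markers ran from 113 and 135 scaled tags at Csf1r to 530 and 520 at Itgam. They were also found at 1 of 3 B cell markers, Ms4a1, with 35.2 and 32.4, and at 1 of 3 neutrophil markers, S100a8, with 173 and 184, as much as at Spi1 with 173 and 165. Among the macrophage markers p65 in Veh ran from 44.7 and 85.8 at Mertk to 207 and 247 at Adgre1. It was at 21.01 and 15.9 at Ms4a1, 27.1 and 23.3 at S100a8 and 21.9 and 14.9 at the dendritic cell marker Zbtb46, with no p65 peak at the other markers of these types or at the T cell markers. The part of other cell types in the p65 values was not tested.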

How the data were processed

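The authors aligned single-end reads to mm10 with Bowtie2, called peaks with HOMER, kept those reproducible between replicates by IDR, merged them over conditions and deposited raw tag counts per peak, counting at most 3 tags per position, versions not given in the sources used here. Library totals came from the file headers. Tags were scaled to 10000000 reads. Peaks with at least 4 tags in 1 library (16 for H3K27ac) were tested with edgeR 4.0.16 (quasi-likelihood, library totals as offsets) in R 4.3.3, with Benjamini-Hochberg adjustment over all peaks, an adjusted p threshold of 0.05 and a fold threshold of 2. The SE given was derived as the absolute log2 fold change divided by the square root of the quasi-likelihood F. TMM, DESeq2 1.42.0, filters, the replicate block and left-out libraries were alternatives. Scripts were tested on simulated data, where 56% of 200 peaks given a 3-fold change were recovered, so a peak without a call may still have changed. The labels call the replicates biological, and p-values measure the spread between these libraries. Replicates differed beyond sampling noise, with a chi-square per peak of 3.43 (Veh) and 2.25 (KLA). Log2 tags of replicates had Pearson r of 0.81 (Veh) and 0.94 (KLA) over peaks. Input libraries were not analysed here, and some genes of the lists are not reported here.

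The genes named were the strongest peaks of Ptgs2, Cp and Il12a, per list up to 3 genes higher and 2 lower by lowest p, the 8 called peaks with the lowest p in each direction (1 per gene), and the 5 genes with the most gained and the most lost peaks. Other list members are named to complete a count. Members and lists were chosen with earlier results of these data known. The NCoR readout, the repeat names and the element near Ctu1 were chosen after seeing the data. Sequence was read from GRCm38, on which 94.5% of the table's start site distances were matched within 10 bp.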

Additional observations from a re-analysis of the deposited data

How the results depend on the processing

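Beside 29981 higher and 2859 lower peaks and 6479 and 624 genes, TMM gave 14540 and 11205 peaks and 2918 and 2742 genes, DESeq2 size factors in edgeR 14843 and 10925 peaks and 3000 and 2654 genes, and the DESeq2 Wald test 13817 and 10905 peaks and 2802 and 2605 genes. Leaving out 1 library gave 15642 to 32535 higher and 364 to 3604 lower peaks, and 5604 to 6928 higher and 266 to 755 lower genes; the lowest values came without a KLA library, and the lone sample left is assumed to vary like the other group. With the replicate block 1478 peaks were lower. The numbers do not pair the libraries (r of replicate deviations 0.00032 over 2 pairs), and the block changed no call of the 116 named values. Peaks within 2 kb of a start site alone gave 1850 higher and 873 lower genes of 7255 tested, with a median log2 fold change of 0.080. The distal share of higher peaks was 91.8% by TMM. The NF-κB consensus was in 9.54% of higher and 2.07% of lower peaks in 100 bp, and in 15.6% and 8.58% in 400 bp.

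At higher and lower p65 peaks, the median PU.1 log2 fold change was 0.19 and -1.38 within 200 bp, 0.13 and -1.28 within 1000 bp, 0.58 and -0.90 by TMM, and 0.74 and -0.78 with p65 called by TMM. The last setting gave 2.24 and -1.22 for Fosl2, 2.91 and -0.76 for p300, 1.90 and -0.83 for NCoR, and 0.88 and 0.046 for H3K27ac, the last reversed from -0.12. TMM gave 1.25 and -1.93 for p300 and 0.28 and -0.27 for H3K27ac.

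The log2 fold change turned with TMM, DESeq2 size factors and the Wald test at the strongest peaks of Fos (-0.55, -0.52 and -0.52), Nr1d1 (-0.48, -0.45 and -0.45) and Actb (-0.64, -0.60 and -0.60), and in the sums of 2010111I01Rik (-0.33, -0.30 and -0.30) and Dhrs3 (-0.48, -0.45 and -0.45). With TMM alone it turned at the Mmp9 peak (-0.011) and in the Actb sum (-0.0073). With peaks within 2 kb of a start site alone the sums turned for 2010111I01Rik (-1.52), Dhrs3 (-1.48), Abcg1 (-2.04), Egr2 (-1.05), Fos (-2.06), Irak2 (-0.25), Maf (-0.92) and Tnfrsf11a (-0.036). The cause was not tested. Intervals cover counting error only.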
